A study of Mus musculus with 9 samples.

Results

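Bone morphogenetic proteins (BMPs) and activins are secreted ligands of the TGF-beta family, and 10 genes of this system were followed in the mouse hippocampus. They were taken by gene name from the deposited annotation, as 1 row each among the 55471 Ensembl genes counted: the ligands Bmp2, Bmp3, Bmp4, Bmp6 and Bmp7, the activin subunit Inhba, the antagonists Fst and Nog, and the receptors Bmpr1a and Bmpr2. All 10 passed the filter on low counts that left 17396 genes for testing. The set was chosen by its place in the pathway and selected on the measured levels and fold changes of Bmp3 and Fst over the 3 groups, which were already known, so levels and fold changes are given as a description, and support for a difference is not drawn from them.

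A BMP or activin dimer joins type I and type II receptor kinases, which phosphorylate Smad proteins that then enter the nucleus with Smad4. BMPs act mainly through Smad1, Smad5 and Smad9 and raise the Id genes, while activins act through Smad2 and Smad3. Noggin and follistatin, the proteins of Nog and Fst, bind ligands outside the cell and keep them from their receptors. In the adult hippocampus BMP signalling is known to hold neural stem cells of the dentate gyrus in quiescence, which noggin counteracts, and Inhba is known as a gene induced by neuronal activity.

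The 9 RNA-seq libraries came from hippocampi of 9-month-old female mice, with 3 libraries per group. LP-10d-treated 3xTg mice received LP-10d by mouth at 10 mg/kg, 4 times per week for 1 month, 3xTg vehicle mice received the blank solvent by mouth 4 times per week, and WT vehicle mice were C57BL/6J given the same solvent. The 3xTg genotype is labelled APPSwe/tauP301L/PS1M146V in the first library, and the number in the PS1 allele increases by 1 with each following library up to 151, so the label was read as 1 genotype for all 6 libraries. In this line the human APP and tau transgenes are driven by the neuronal Thy1 promoter, and its strain background may differ from C57BL/6J, which these groups cannot tell apart from the transgenes. Whether each replicate was its own animal is not stated. The p-values here set a group difference against the spread between these samples, which may be technical.

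Total counts ran from 16582086 to 19170969 per library. Hippocampal markers were present in each library, with Prox1 of the dentate gyrus at 46.5 to 130 CPM (the count scaled to the TMM-adjusted library size), Wfs1 of CA1 at 159 to 298 CPM and Amigo2 of CA2 at 14.3 to 29.1 CPM. Some libraries stood apart in markers of neighbouring tissue. The summed level of 7 striatal markers was 1125 CPM in 3xTg vehicle replicate 2 and at most 182 CPM elsewhere, and that of 6 thalamic markers was 329 CPM in WT vehicle replicate 3, 277 CPM in 3xTg vehicle replicate 2 and at most 121 CPM elsewhere. WT vehicle replicate 3 also had 5.04% of its counts on mitochondrial genes. Because these are bulk samples, fewer cells of a type and less RNA per cell cannot be told apart in any level below.

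Per length of gene model, on the FPKM scale (fragments per kilobase of gene model, scaled to the library total), the 10 genes spanned a wide range. The mean level over the 9 libraries was 5.71 ± 0.46 FPKM for Bmpr1a, 4.85 ± 2.17 for Bmp6, 4.33 ± 0.70 for Nog, 3.47 ± 0.24 for Bmpr2 and 3.13 ± 1.07 for Bmp7 (SD, n = 9). Levels were lower for Bmp4 at 1.12 ± 0.27 FPKM, Bmp3 at 0.951 ± 0.383, Bmp2 at 0.882 ± 0.191, Inhba at 0.865 ± 0.126 and Fst at 0.300 ± 0.124 FPKM (SD, n = 9). Between neighbours in this order, Nog lay above Bmpr2, Bmp7 above Bmp4 and Inhba above Fst in 9 of 9 libraries. The other neighbours exchanged places in 3 or more libraries. The receptors varied least, with a coefficient of variation over libraries of 6.95% for Bmpr2 and 7.28% for Bmpr1a, and Bmp6, Fst and Bmp3 most, with 43.9%, 40.7% and 39.3%.

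**Figure D1:**
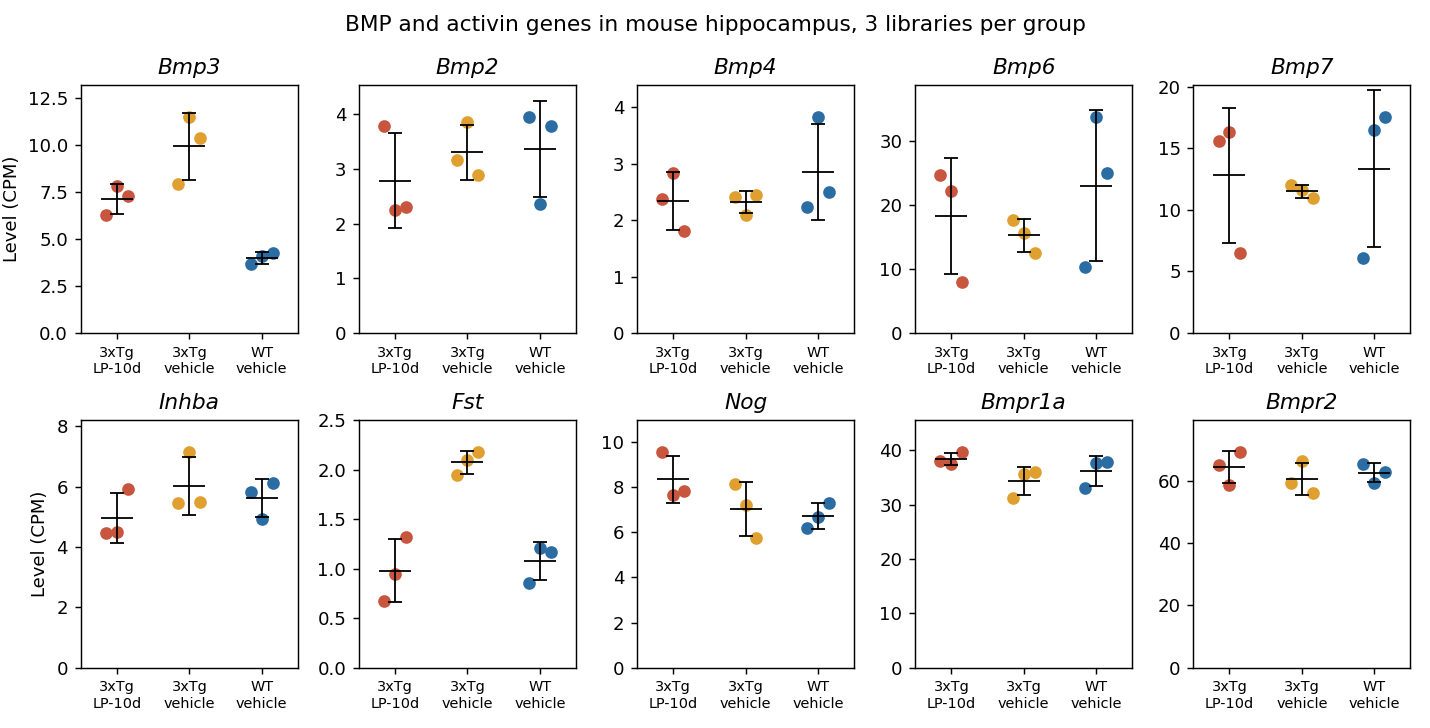
Level of each of the 10 genes in CPM (y axis, from 0) in the 3 groups (x axis), with 1 point per library and the mean ± SD of 3 libraries in black. Bmp3 lies between 6.26 and 11.5 CPM in the 6 3xTg libraries and between 3.66 and 4.23 CPM in WT vehicle, and Fst lies between 1.95 and 2.18 CPM in 3xTg vehicle, with at most 1.32 CPM in the other libraries.

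Bmp3 (ENSMUSG00000029335; mm10 chromosome 5, 98854415 to 98884396, plus strand) encodes a divergent BMP that is known from bone as an inhibitor of other BMPs. It had 6.26, 7.83 and 7.30 CPM in LP-10d-treated 3xTg replicates 1, 2 and 3, 7.94, 11.5 and 10.3 CPM in 3xTg vehicle, and 3.66, 4.09 and 4.23 CPM in WT vehicle. No pair of groups overlapped: every 3xTg vehicle library lay above every treated library, and all 6 3xTg libraries lay above all 3 WT vehicle libraries. The arrangement of all 6 3xTg libraries above WT vehicle was also seen in 3.83% of all genes tested. The counts behind these levels were 111 to 133 in treated, 151 to 202 in 3xTg vehicle and 64 to 78 in WT vehicle libraries. No annotated gene overlaps Bmp3 in GENCODE M21.

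The fitted log2 fold change of Bmp3 was 1.31 ± 0.17 (SE) for 3xTg vehicle over WT vehicle, 0.83 ± 0.18 for treated 3xTg over WT vehicle and -0.47 ± 0.16 for treated over vehicle 3xTg. These comparisons share libraries and are not separate measurements of each other. Mean levels were 7.13 ± 0.795 CPM in treated 3xTg, 9.92 ± 1.80 CPM in 3xTg vehicle and 3.99 ± 0.30 CPM in WT vehicle (SD, n = 3 each). Bmp3 did not pass edgeR's adjusted threshold in any of the 3 comparisons, with an edgeR adjusted p of 0.0758 for 3xTg vehicle against WT vehicle, 1.00 for treated against vehicle 3xTg and 0.465 for treated 3xTg against WT vehicle. That call depended on the setting. For 3xTg vehicle against WT vehicle the adjusted p was 9.64e-07 by DESeq2, 0.042 by edgeR with no filter on low counts and 0.043 by edgeR without 3xTg vehicle replicate 1, and over all alternatives it reached up to 0.226. For treated 3xTg against WT vehicle it was 0.0374 by DESeq2. Without 3xTg vehicle replicate 2, the library with the high striatal markers, the log2 fold change of 3xTg vehicle over WT vehicle was 1.19, and without 3xTg vehicle replicate 2 and WT vehicle replicate 3 together it was 1.23.

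Most neocortical and GABAergic interneuron markers had fold changes of the same sign as Bmp3. Most dentate gyrus markers had the opposite sign for each 3xTg group over WT vehicle. edgeR called 0 of each list. All 7 neocortical markers had a positive fold change in 3xTg vehicle over WT vehicle, and their summed level spanned 325 to 414 CPM in treated 3xTg, 371 to 505 in 3xTg vehicle, and 269 to 349 in WT vehicle. In treated over vehicle 3xTg, 6 of the 7 had a negative fold change, and in treated 3xTg over WT vehicle 6 of the 7 had a positive one. Of the defining markers, Cux2 spanned 80.6 to 127 CPM in 3xTg vehicle against 30.4 to 57.3 CPM in WT vehicle. Lamp5 spanned 45.4 to 66.5 against 29.3 to 33.1 CPM, and Rorb 13.9 to 20.1 against 13.7 to 22.9 CPM, in the same order of groups. The groups of Cux2 overlapped in no comparison, as for Bmp3, with a mean of 72.6 CPM in treated 3xTg. Its means were 98.5 CPM in 3xTg vehicle and 47.1 CPM in WT vehicle. Lamp5 overlapped between treated and vehicle 3xTg, and Rorb in every comparison. Dentate gyrus markers had a negative fold change in 6 of 7 for 3xTg vehicle over WT vehicle. Their sums were 328 to 480 CPM in 3xTg vehicle against 500 to 681 CPM in WT vehicle. For treated 3xTg over WT vehicle 7 of 7 were negative, and for treated over vehicle 3xTg 3 of 7. GABAergic interneuron markers had a positive fold change in 6 of 7 for 3xTg vehicle over WT vehicle, 3 of them with no overlap (9.38% of all genes). They were negative in 5 of 7 for treated over vehicle 3xTg and positive in 4 of 7 for treated 3xTg over WT vehicle. The part of these regions and cells in the Bmp3 levels was not tested. Striatal markers were high in 1 library only: their sum was 105, 1125 and 127 CPM in 3xTg vehicle replicates 1, 2 and 3, and 182, 135 and 94.7 CPM in WT vehicle. Replicates 1 and 3 of 3xTg vehicle lay within the WT range of striatal sums. Striatal markers had a positive fold change in 7 of 7 for 3xTg vehicle over WT vehicle. They had a negative one in 7 of 7 for treated over vehicle 3xTg and in 6 of 7 for treated 3xTg over WT vehicle. Thalamic markers had a negative fold change in 5 of 6 for 3xTg vehicle over WT vehicle, with a median of -0.26. For treated 3xTg over WT vehicle it was negative in 6 of 6, with a median of -1.19, and for treated over vehicle 3xTg in 6 of 6. The part of striatal and thalamic tissue in the Bmp3 levels was not tested. The 3 genes with the pattern most like that of Bmp3 over the 9 libraries, by Pearson's r of log2 CPM, were Tcap (r = 0.988), Car10 (r = 0.973) and Pfkp (r = 0.960).

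Bmp6 (chromosome 13, 38345107 to 38500302) and Bmp7 (chromosome 2, 172868012 to 172940321) encode closely related ligands, and both varied more within the treated and WT vehicle groups than between groups. Bmp6 had 24.8, 22.3 and 7.96 CPM in treated 3xTg replicates 1, 2 and 3, 17.6, 15.6 and 12.6 CPM in 3xTg vehicle, and 10.3, 33.7 and 25.0 CPM in WT vehicle. Bmp7 had 15.6, 16.4 and 6.48 CPM in treated 3xTg, 12, 11.6 and 10.9 CPM in 3xTg vehicle, and 6.05, 16.5 and 17.5 CPM in WT vehicle. Both genes were low in treated replicate 3 and WT vehicle replicate 1, and the groups overlapped in every comparison. For 3xTg vehicle over WT vehicle the log2 fold change was -0.59 ± 0.44 (SE) for Bmp6 and -0.22 ± 0.39 for Bmp7, and for treated over vehicle 3xTg it was 0.26 ± 0.45 and 0.15 ± 0.39.

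The same libraries differed in choroid plexus markers. The summed level of 10 such markers was 1512, 2689 and 52.8 CPM in treated 3xTg replicates 1, 2 and 3, 953, 154 and 59.4 CPM in 3xTg vehicle, and 70.1, 4467 and 2409 CPM in WT vehicle. The defining markers Ttr, Kl and Folr1 ran from 18.8 to 4016, 17.4 to 178 and 0.272 to 35.8 CPM over the 9 libraries. Treated replicate 3 had the lowest sum and the lowest Bmp6, and WT vehicle replicate 2 had the highest of both. Other libraries departed from this order. 3xTg vehicle replicate 3 had a lower sum than WT vehicle replicate 1, but more Bmp6 and Bmp7. Bmp7 was lowest in WT vehicle replicate 1 and highest in WT vehicle replicate 3. For 3xTg vehicle over WT vehicle all 10 choroid plexus markers had a negative fold change, and 0 of them passed edgeR's adjusted threshold. The part of choroid plexus tissue in the levels of Bmp6 and Bmp7 was not tested. The summed level of 9 leptomeningeal and fibroblast markers was 115, 121 and 56.1 CPM in treated 3xTg replicates 1, 2 and 3. It was 97.9, 82.4 and 73.1 CPM in 3xTg vehicle, and 65.4, 102 and 102 CPM in WT vehicle. Like Bmp6 and Bmp7, this sum was lowest in treated replicate 3 and WT vehicle replicate 1. The part of leptomeningeal tissue in the levels of Bmp6 and Bmp7 was not tested. Exons of Bmp6 overlap those of Txndc5 on the other strand, which had 795 to 985 counts per library, and without a stated strand setting reads in the overlap cannot be assigned with certainty.

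**Figure D2:**
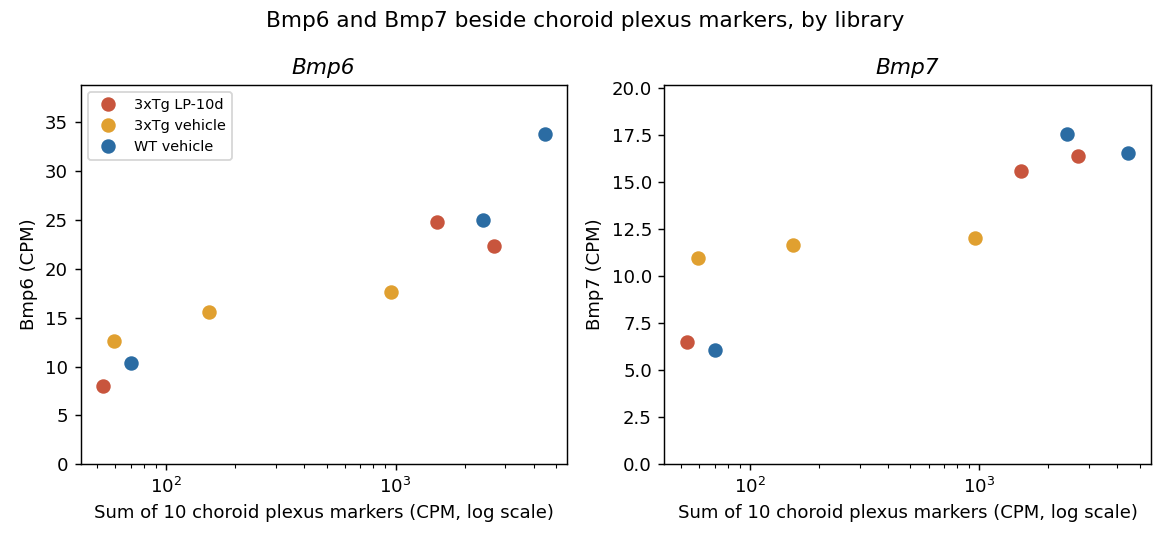
Bmp6 (left) and Bmp7 (right) in CPM against the summed level of 10 choroid plexus markers in CPM on a log axis, with 1 point per library coloured by group. Treated 3xTg replicate 3 and WT vehicle replicate 1, with sums of 52.8 and 70.1 CPM, have 7.96 and 10.3 CPM of Bmp6. WT vehicle replicate 2, with a sum of 4467 CPM, has 33.7 CPM, and 3xTg vehicle replicate 3, with 59.4 CPM, has 12.6 CPM.

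Bmp2 (chromosome 2, 133552159 to 133562885) and Bmp4 (chromosome 14, 46383520 to 46390669), the classical ligands that noggin binds, were low in all groups. Bmp2 had 3.78, 2.25 and 2.31 CPM in treated 3xTg, 3.16, 3.86 and 2.89 CPM in 3xTg vehicle, and 3.94, 2.36 and 3.78 CPM in WT vehicle. Bmp4 had 2.37, 2.85 and 1.81 CPM in treated 3xTg, 2.42, 2.10 and 2.45 CPM in 3xTg vehicle, and 2.23, 3.83 and 2.50 CPM in WT vehicle. The groups overlapped for both genes in all 3 comparisons. Their log2 fold changes were -0.02 ± 0.26 and -0.30 ± 0.25 (SE) for 3xTg vehicle over WT vehicle, and -0.24 ± 0.27 and 0.01 ± 0.26 for treated over vehicle 3xTg. Each rested on 33 to 73 counts per library.

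Inhba (chromosome 13, 16011851 to 16031621) encodes the beta A subunit of activin A. It had 4.46, 4.51 and 5.93 CPM in treated 3xTg replicates 1, 2 and 3, 5.47, 7.15 and 5.50 CPM in 3xTg vehicle, and 5.83, 4.93 and 6.12 CPM in WT vehicle. Treated replicates 1 and 2 lay below the other 7 libraries, and treated replicate 3 lay within the range of both vehicle groups. The log2 fold change was -0.28 ± 0.18 (SE) for treated over vehicle 3xTg and 0.10 ± 0.18 for 3xTg vehicle over WT vehicle.

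Fst (chromosome 13, 114452290 to 114458951, minus strand) encodes follistatin, which binds activins with high affinity and several BMPs more weakly. It had 0.677, 0.949 and 1.32 CPM in treated 3xTg replicates 1, 2 and 3, 1.95, 2.10 and 2.18 CPM in 3xTg vehicle, and 0.857, 1.21 and 1.17 CPM in WT vehicle. All 3 vehicle-treated 3xTg libraries lay above the other 6 libraries, while treated 3xTg and WT vehicle overlapped. A level in 3xTg vehicle above both other groups with no overlap was seen in 2.06% of all genes tested. The log2 fold change was 0.94 ± 0.25 (SE) for 3xTg vehicle over WT vehicle, -1.07 ± 0.26 for treated over vehicle 3xTg, and -0.13 ± 0.29 for treated 3xTg over WT vehicle. The first and second of these share the 3xTg vehicle libraries, so a high level there enters both with opposite sign.

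Fst levels rested on few reads, with 12, 16 and 24 counts in treated 3xTg, 37, 37 and 40 in 3xTg vehicle, and 15, 23 and 21 in WT vehicle. The antisense gene Gm47040, whose exons overlap those of Fst, had at most 1 count in any library. Fst did not pass edgeR's adjusted threshold in any comparison. Leaving out single libraries, the treated over vehicle log2 fold change of Fst ran from -1.35 to -0.86, and without 3xTg vehicle replicate 2 and WT vehicle replicate 3 together it was -1.06. The neocortical marker sums given beside Bmp3 were also higher in 3xTg vehicle than in WT vehicle. In treated 3xTg over WT vehicle 6 of 7 neocortical markers had a positive fold change, while that of Fst was negative and its groups overlapped. The part of neocortical tissue in the Fst levels was not tested. The genes most like Fst over the 9 libraries were Dbpht2 (r = 0.945), Igsf9 (r = 0.942) and Sun1 (r = 0.941). The r of Fst with Bmp3 was 0.653. By r, Fst ranked 1300 among genes like Bmp3, and Bmp3 ranked 544 among genes like Fst. Both were selected on their levels in these libraries, so nothing is read from this r.

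Nog (chromosome 11, 89300638 to 89302332) encodes noggin. It had 9.54, 7.65 and 7.79 CPM in treated 3xTg, 8.10, 7.21 and 5.72 CPM in 3xTg vehicle, and 6.17, 6.66 and 7.29 CPM in WT vehicle. The treated libraries lay above all WT vehicle libraries, with the lowest treated value 7.65 CPM and the highest WT value 7.29 CPM, and overlapped 3xTg vehicle. The log2 fold change was 0.31 ± 0.16 (SE) for treated 3xTg over WT vehicle and 0.25 ± 0.16 for treated over vehicle 3xTg.

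The receptors were the steadiest of the 10 genes. Bmpr1a, a type I receptor of BMPs (chromosome 14, 34410734 to 34503341), had 38.0, 37.5 and 39.7 CPM in treated 3xTg, 31.3, 35.6 and 36.1 CPM in 3xTg vehicle, and 33.1, 37.7 and 37.8 CPM in WT vehicle. The treated libraries lay above all 3xTg vehicle libraries, with a log2 fold change of 0.16 ± 0.09 (SE). Bmpr2, a type II receptor of BMPs (chromosome 1, 59763400 to 59879014), had 65.1, 58.8 and 69.2 CPM in treated 3xTg, 59.2, 66.2 and 56.0 CPM in 3xTg vehicle, and 65.3, 59.3 and 62.9 CPM in WT vehicle. Its groups overlapped in all 3 comparisons, with log2 fold changes between -0.05 and 0.09.

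**Figure D3:**
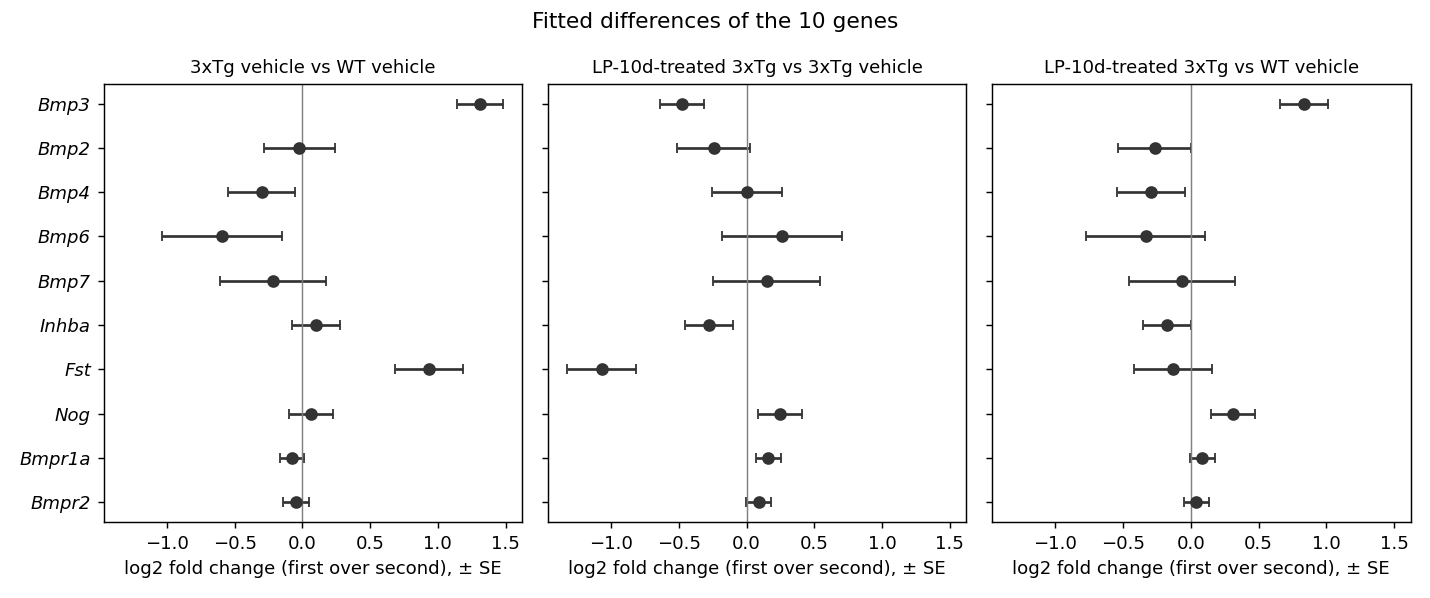
Fitted log2 fold change (x axis) of each of the 10 genes (y axis) in the 3 comparisons, as first-named over second-named group, with bars of ± 1 SE from the fit of all 9 libraries. Bmp3 and Fst lie at 1.31 and 0.94 for 3xTg vehicle over WT vehicle and at -0.47 and -1.07 for treated over vehicle 3xTg, while Bmpr1a lies between -0.08 and 0.16 and Bmpr2 between -0.05 and 0.09.

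In 3xTg vehicle against WT vehicle, the quasi-likelihood test of edgeR, adjusted by Benjamini-Hochberg, called 0 of the 10 genes, where it called 0.00575% of all genes tested. At an unadjusted p under 0.05 it counted 2 of the 10, against 14.1% of all genes, while limma-voom called 0 of the 10 and 0.00575% of all genes, and DESeq2 called 1 of the 10 and 1.95% of the genes it gave an adjusted p. Groups did not overlap, with 3xTg vehicle higher, for 2 of the 10 genes, Bmp3 and Fst, against 9.38% of all genes, and for 0 with 3xTg vehicle lower, against 7.99%. The genes were chosen with these values known, so nothing is read from these counts. The median log2 fold change was -0.03 over the 10 genes and 0.00 over all genes.

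In LP-10d-treated against vehicle 3xTg, edgeR called 0 of the 10 genes and 0% of all genes. limma-voom called 0 of the 10 and 0% of all genes, and DESeq2 0 of the 10 and 0.00575% of the genes with an adjusted p. At an unadjusted p under 0.05 edgeR counted 2 of the 10, Bmp3 and Fst, against 2.9% of all genes. Treated libraries lay below vehicle libraries with no overlap for 2 of the 10, against 5.81% of all genes, and above them for 1, Bmpr1a, against 5.82%. With the replicate number as a block in a fit of these 6 libraries, edgeR called 1 gene in all and 0 of the 10. In treated 3xTg against WT vehicle edgeR and limma-voom each called 0 of the 10 and 0% of all genes, and DESeq2 called 1, Bmp3, and 0.265% of the genes with an adjusted p. At an unadjusted p under 0.05 edgeR counted 1 of the 10 there, against 8.75% of all genes. Treated libraries were above WT vehicle with no overlap for 2 of the 10, Bmp3 and Nog, against 7.49%, and below it for 0, against 6.89%.

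The rest of the pathway was read from 6 lists by role, with 79 genes of which 67 were tested, the 10 genes included. edgeR called 0 of the 67 in each comparison, while an unadjusted p under 0.05 was found for 15 in 3xTg vehicle against WT vehicle (14.1% of all genes), 6 in treated against vehicle 3xTg (2.9%) and 12 in treated 3xTg against WT vehicle (8.75%). DESeq2 called 2, 0 and 1 of them, against 1.95%, 0.00575% and 0.265% of the genes with an adjusted p. limma-voom called 0 in each, against 0.00575%, 0% and 0% of all genes. For the 57 tested genes beside the 10, edgeR gave an unadjusted p under 0.05 for 13, 4 and 11 in these comparisons. Their median log2 fold change was -0.10, -0.06 and -0.09, and that of all genes was 0.00 in each.

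Among ligands other than the 10, treated 3xTg and WT vehicle did not overlap for Gdf11, a ligand that signals through activin receptors. It was at 29.2 ± 1.20 CPM in treated 3xTg and 37.3 ± 8.77 CPM in WT vehicle (SD, n = 3 each). The highest treated library had 30.2 CPM, and WT vehicle replicates 1, 2 and 3 had 30.7, 34.0 and 47.3 CPM. Treated libraries lay below WT vehicle with no overlap in 6.89% of all genes. Inha, the inhibin alpha subunit, whose dimers oppose activin, had the smallest adjusted p of the pathway genes beside the 10 in 3xTg vehicle against WT vehicle. It had 43.1, 41.3 and 43.1 CPM in treated 3xTg, 46.1, 51.9 and 50.1 CPM in 3xTg vehicle, and 35.5, 37.4 and 31.9 CPM in WT vehicle, with no overlap between any groups. Like Bmp3, it was highest in 3xTg vehicle, lower in treated 3xTg and lowest in WT vehicle. Taken singly, 3xTg vehicle lay above WT vehicle with no overlap in 9.38% of all genes. Treated lay below vehicle 3xTg in 5.81%, and treated 3xTg above WT vehicle in 7.49%. Inha is named for its small p, so nothing is read from this order. Its log2 fold change was 0.50 ± 0.09 (SE) for 3xTg vehicle over WT vehicle, with edgeR adjusted p = 0.0844, and -0.22 ± 0.09 for treated over vehicle 3xTg, with edgeR adjusted p = 1.00.

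Of 20 tested antagonists and modulators, 12 had a positive and 8 a negative fold change in 3xTg vehicle over WT vehicle. Vwc2, the BMP antagonist brorin, was at 7.74 ± 1.28 CPM in 3xTg vehicle and 4.72 ± 1.19 CPM in WT vehicle, and Bmper, a secreted BMP-binding protein, at 7.75 ± 2.46 and 3.73 ± 1.65 CPM in the same groups (SD, n = 3 each; edgeR adjusted p = 0.200 and 0.257). In treated 3xTg over WT vehicle, Bmp1, a protease that cleaves the antagonist chordin, had a log2 fold change of -0.37 ± 0.11 and Vwc2l, a relative of Vwc2, one of 1.18 ± 0.46 (SE; edgeR adjusted p = 0.527 and 0.569).

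Of 14 receptors and coreceptors, 2, the activin receptors Acvr1b and Acvr2a, were higher in 3xTg vehicle than in WT vehicle with no overlap, and 0 were lower, against 9.38% and 7.99% of all genes. Acvr1b, a type I receptor, was at 170 ± 4.44 and 145 ± 11.9 CPM, and Acvr2a, a type II receptor, at 37.4 ± 1.18 and 30.8 ± 3.43 CPM in these groups (SD, n = 3 each; edgeR adjusted p = 0.290 and 0.300). In treated against vehicle 3xTg, Acvr1b had a log2 fold change of -0.15 ± 0.08 (SE). In treated 3xTg over WT vehicle Acvr2a was at 0.33 ± 0.11 and the endothelial coreceptor Eng at -0.43 ± 0.16 on the log2 scale (SE; edgeR adjusted p = 0.535 and 0.568).

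Inside the cell, 11 of 12 Smads and Smad regulators had a negative fold change in treated over vehicle 3xTg, with a median of -0.09. The 11 included Smad4 and Smurf2, both at -0.04. In that comparison edgeR called 0 of the 12 and gave an unadjusted p under 0.05 for 2, against 2.9% of all genes. Treated libraries lay above vehicle libraries with no overlap for 1 of the 12 and below for 2, against 5.82% and 5.81% of all genes. The exception in sign was Smad6, an inhibitory Smad induced by BMPs. Smad6 had 4.40, 5.16 and 3.13 CPM in treated 3xTg, 2.31, 2.44 and 2.29 CPM in 3xTg vehicle, and 2.40, 4.24 and 2.45 CPM in WT vehicle. All treated libraries lay above all 3xTg vehicle libraries, with a log2 fold change of 0.84 ± 0.27 (SE; edgeR adjusted p = 1.00). The ubiquitin ligase Smurf1, which marks Smads for degradation, was at 69.9 ± 3.13 CPM in treated and 83.0 ± 9.56 CPM in vehicle 3xTg (SD, n = 3 each). For 3xTg vehicle over WT vehicle the Smad corepressor Skil had a log2 fold change of 0.17 ± 0.09, and for treated 3xTg over WT vehicle Ski and Smurf2 had -0.24 ± 0.09 and -0.15 ± 0.08 (SE).

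Of 9 BMP target genes, 8 had a negative fold change in 3xTg vehicle over WT vehicle, with a median of -0.29. The 8 included Id2 at -0.001 and Hey1 at -0.02. In that comparison edgeR called 0 of the 9 and gave an unadjusted p under 0.05 for 1, against 14.1% of all genes. Groups did not overlap for 0 of the 9 in either direction, against 9.38% higher and 7.99% lower over all genes. In treated over vehicle 3xTg, 6 of 9 had a positive fold change, with a median of 0.02. Id1, the best known BMP target, had 15.7, 13.9 and 14.4 CPM in treated 3xTg, 13.0, 13.0 and 12.5 CPM in 3xTg vehicle, and 12.4, 19.7 and 15.1 CPM in WT vehicle. The treated libraries lay above the 3xTg vehicle libraries, with a log2 fold change of 0.19 ± 0.16 (SE), and both lay within the range of WT vehicle. Id4 was at 35.9 ± 3.59 CPM in treated 3xTg and 44.3 ± 0.85 CPM in WT vehicle (SD, n = 3 each; edgeR adjusted p = 0.588). Msx1, chosen after its values were seen, had the fold change farthest from 0 of the 9 for 3xTg vehicle over WT vehicle, at -1.23 ± 0.52 (SE). It had 12.9, 13.5 and 4.45 CPM in treated 3xTg replicates 1, 2 and 3, 8.10, 4.65 and 6.10 CPM in 3xTg vehicle, and 4.97, 20.8 and 18.4 CPM in WT vehicle, lowest in treated replicate 3, 3xTg vehicle replicate 2 and WT vehicle replicate 1. The first and last of these were also low in Bmp6, Bmp7 and the choroid plexus and leptomeningeal markers. The part of these tissues in the Msx1 level was not tested.

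**Figure D4:**
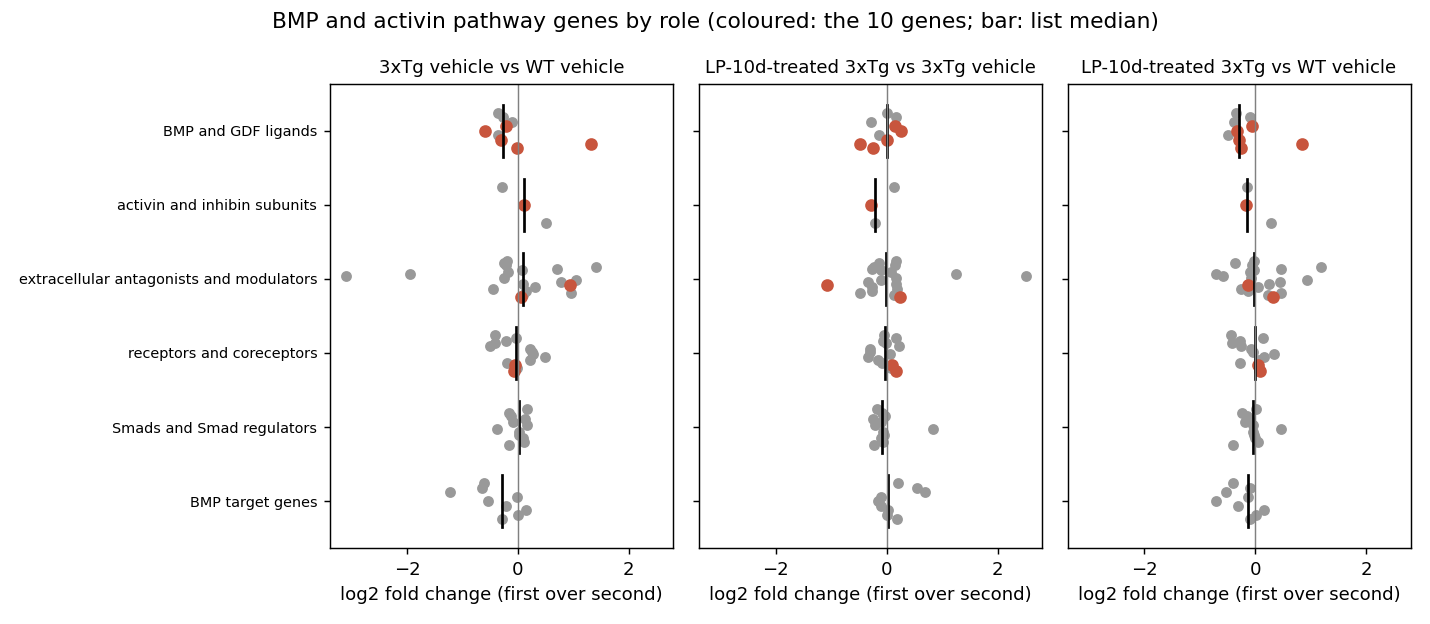
Fitted log2 fold change (x axis, first-named over second-named group) of the 67 tested pathway genes in 6 lists by role (y axis), in the 3 comparisons; coloured points are the 10 genes, grey points the others, and black bars the list medians. In 3xTg vehicle over WT vehicle the target genes have a median of -0.29, and edgeR called 0 of these 9. Bmp3, which was chosen with this difference known, is at 1.31 there, apart from the other 8 ligands tested.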

How the data were processed

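The authors deposited raw counts per Ensembl gene and FPKM values with gene names and positions, both for 9 libraries; positions are on mm10, which the submitters' processing notes name. RNA was purified by TRIzol and a column, and 300 ng per library went into an MGI kit, per the labels' protocols. How reads were aligned and counted, and whether by strand, is not given in the sources used here. Across libraries, count over FPKM scaled with the total count (largest relative deviation 6.66e-16). All 10 gene positions equalled GENCODE M21.

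Counts were fitted with edgeR 4.0.16 in R 4.3.3: filterByExpr, TMM scaling, 1 fit of 9 libraries with group means, the quasi-likelihood test (with legacy off) and Benjamini-Hochberg adjustment over 17396 genes, threshold 0.05. SE is the fold change divided by the root of F. Levels in CPM were computed from the counts, FPKM was used only between genes, and r from log2 CPM with a prior count of 2. DESeq2 1.42.0 and limma-voom (limma 3.58.1) were alternatives. The methods were tested on simulated data.

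No replicate pair agreed within sampling noise, as the chi-square per degree of freedom was 4.99 or more. Same-numbered libraries of treated and vehicle 3xTg deviated together (correlations over genes 0.173, 0.104 and 0.375). Differently numbered ones ran from -0.298 to 0.180, and treated replicate 2 was closer to vehicle replicate 1 than to vehicle replicate 2. Treated replicate 3 and WT vehicle replicate 1 reached 0.386. The labels do not say that equal numbers share anything, so a pairing by number was not established. In the comparisons with WT vehicle at least 1 same-numbered pair had a negative correlation.

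The members, lists and settings were chosen with earlier results of these data known. Besides the members, genes named are, per list and comparison, the 2 with the smallest p whose groups do not overlap at a mean of at least 1 CPM, the 3 genes most like Bmp3 and Fst, and markers among the first 3 of their list.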

Additional observations from a re-analysis of the deposited data

How the results depend on the processing

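Bmp3 and Fst kept their direction in 3xTg vehicle over WT vehicle and in treated over vehicle 3xTg in every alternative run, with log2 fold changes of 1.19 to 1.45 and -0.61 to -0.35 for Bmp3, and 0.80 to 1.03 and -1.35 to -0.86 for Fst. The call on Bmp3 depended on the tool. In 3xTg vehicle against WT vehicle, DESeq2 called 339 genes in place of 1, of them 1 of the 10 genes and 2 of the pathway lists, Bmp3 and Inha (adjusted p = 9.64e-07 for Bmp3, the smallest of all alternatives; the largest was 0.226, without 3xTg vehicle replicate 3). With no filter on low counts edgeR called 3 genes, 1 of them Bmp3 (adjusted p = 0.042). Leaving out single libraries gave 0 to 11 genes, with 0 to 1 of the 10 and 0 to 1 of the lists: 0 genes without WT vehicle replicate 1, 3xTg vehicle replicate 2 or 3, or treated replicate 1, 11 without WT vehicle replicate 2, 4 without treated replicate 2, and 4 without 3xTg vehicle replicate 1, Bmp3 among the last (adjusted p = 0.043). In treated against vehicle 3xTg, DESeq2 called 1 gene in place of 0, as did edgeR with a replicate block in a fit of the 6 libraries, added after seeing the data. The block changed no other call. In treated 3xTg against WT vehicle, DESeq2 called 46 genes in place of 0, 1 of them Bmp3 (adjusted p = 0.0374), which is 1 of the 10 and 1 of the lists, and leaving out single libraries gave 0 to 2 genes, 2 of them without treated replicate 2. The causes were not tested. Fst had 12 to 40 counts per library, and what that depth does to its call was not tested.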
